A study of Mus musculus with 8 samples.

Results

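The genes described here are the phosphate carriers, the receptors for parathyroid hormone (PTH) and fibroblast growth factor 23 (FGF23), and the enzymes and receptor of vitamin D in the mouse kidney. The set holds 10 named genes, matched by Ensembl identifier among the 37583 gene rows of the files: Slc34a1, Slc34a3, Slc20a1, Slc20a2, Pth1r, Kl, Fgfr1, Cyp27b1, Cyp24a1 and Vdr. RNA-seq was made from whole kidneys of 8 mice. In 4 libraries the genotype label is knockout, b-actinCreERT2+TFAP2Bfl/fl, which names floxed Tfap2b alleles and a ligand-inducible Cre recombinase under a beta-actin promoter, active in principle in all cells and not in a single nephron segment. The other 4 libraries are labelled WT and come from control littermates whose alleles are not named further. Age, sex, strain, inducing agent and time after induction are not given in the labels. Tfap2b codes for the DNA-binding protein AP-2 beta, which acts in distal tubule development. The comparison asks how these genes differ between the genotypes.

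Phosphate filtered at the glomerulus is recovered mainly in the proximal tubule by sodium-coupled carriers of the apical membrane. PTH, acting through its receptor PTH1R, and FGF23, acting through FGF receptors with klotho as co-receptor, both lower this recovery. The kidney also makes the active form of vitamin D: CYP27B1 activates it, CYP24A1 breaks it down, and the vitamin D receptor VDR carries its signal and induces Cyp24a1. PTH raises and FGF23 lowers Cyp27b1 expression, so these hormones form linked feedback loops.

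Gene counts came to 13435113 to 17930347 per library labelled knockout and 13783857 to 17741722 per library labelled wildtype. Values are given as CPM (read counts scaled to a common library size) after TMM scaling, and fold changes are those of the libraries labelled knockout over those labelled wildtype. The labels give no litter or day for a replicate, so p-values measure only the spread between these libraries. The targeted gene, Tfap2b, stood higher in knockout-labelled kidneys, at 245 ± 14.1 CPM against 103 ± 6.73 CPM (SD, n = 4 each; log2 fold change 1.25 ± 0.074 (SE), edgeR adjusted p = 4.18e-06). Counts over a whole gene include exons outside a deleted part and so do not check the deletion. Podocyte, proximal tubule and thick ascending limb markers were present in all 8 libraries, with the podocyte list summing to 360 to 476 CPM in knockout-labelled kidneys and 455 to 612 CPM in wildtype-labelled kidneys. Knockout 4 stood apart by its adrenal transcripts: the 9 adrenal genes summed to 230.2 CPM there, against 7.76 to 11.6 CPM in the other 7 libraries.

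All 10 genes passed the filter on low counts. By edgeR's quasi-likelihood test with Benjamini-Hochberg adjustment over 15228 genes, 3 of the 10 fell in knockout-labelled kidneys, none rose and 7 did not pass. The 3 were Slc34a1, Slc34a3 and Pth1r, that is, 2 of the 4 phosphate carriers of the set and the PTH receptor. Over all genes tested, 11.9% were called, 6.23% higher and 5.7% lower in knockout-labelled kidneys. The groups did not overlap for the same 3 genes and for 18.5% of all genes. The median log2 fold change of the 10 genes was -0.15, against 0.00 for all genes tested. The klotho gene Kl, Fgfr1, Vdr, the type III carriers Slc20a1 and Slc20a2 and both vitamin D hydroxylases were the 7 that did not pass.

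**Figure D1:**
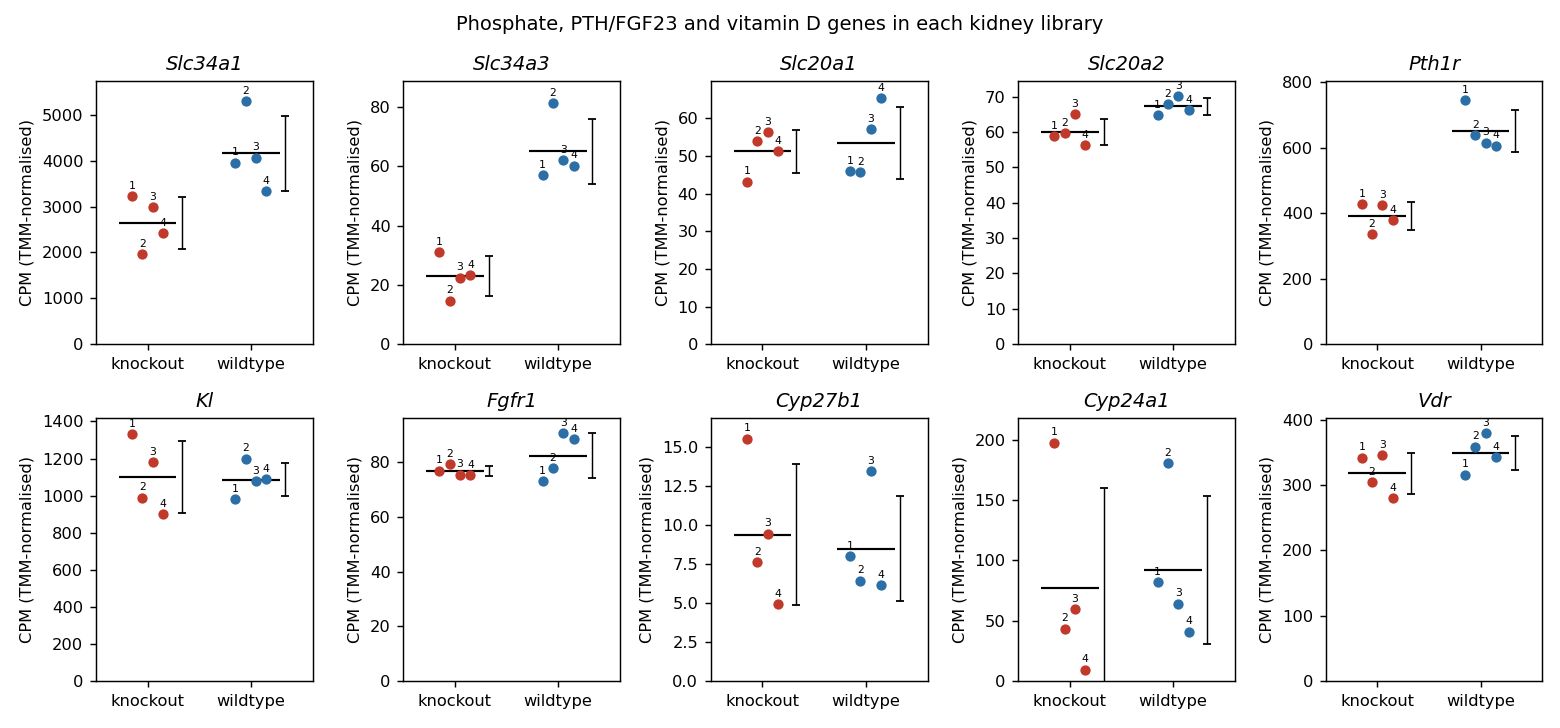
TMM-normalised CPM of the 10 genes in each library (points, numbered by replicate), with the group mean (line) and SD (bar, cut at 0 for Cyp24a1); knockout is left of wildtype. The knockout-labelled kidneys lie wholly below those labelled wildtype for Slc34a1, Slc34a3 and Pth1r, and Cyp24a1 ranges from 9.39 to 198 CPM in knockout-labelled kidneys.

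Slc34a1 encodes NaPi-IIa, the main apical phosphate carrier of the mouse proximal tubule. It stood at 3229, 1967, 2984.5 and 2414 CPM in knockout-labelled kidneys, and at 3956, 5296, 4068.5 and 3339 CPM in wildtype-labelled kidneys. Its groups did not overlap, but the highest library labelled knockout lay just under the lowest labelled wildtype. The fitted level was 36.4% lower (log2 fold change -0.65 ± 0.18 (SE), 95% interval -1.04 to -0.26, edgeR adjusted p = 0.0361). This call was narrow. It ended when any of 6 single libraries was left out (knockout 2, 3 or 4, or wildtype 1, 2 or 3), with adjusted p = 0.0238 to 0.0997 over the 8 such fits. The call also ended with library totals only (adjusted p = 0.0583) and without both knockout 1 and knockout 4 (adjusted p = 0.0915). In whole-kidney RNA, fewer cells of a type and less RNA per cell cannot be told apart.

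Slc34a3 encodes NaPi-IIc, a second apical carrier of the proximal tubule that matters for phosphate balance in human more than in adult mouse. It stood at 31.2, 14.7, 22.4 and 23.3 CPM in knockout-labelled kidneys, and at 56.9, 81.2, 61.9 and 60.2 CPM in wildtype-labelled kidneys. Every library labelled knockout was below every library labelled wildtype, with a wide gap between 31.2 and 56.9 CPM. The fitted level was 64.8% lower (log2 fold change -1.51 ± 0.21 (SE), 95% interval -1.99 to -1.03, edgeR adjusted p = 0.00283). The log2 fold change was -1.69 to -1.34 when each library was left out in turn, and the call held in all 8 of these fits.

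Pth1r encodes the PTH receptor, whose activation withdraws both NaPi-II carriers from the brush border. It stood at 429, 335, 424 and 379 CPM in knockout-labelled kidneys, and at 745, 639, 616 and 606 CPM in wildtype-labelled kidneys. Both groups were tight and far apart. The fitted level was 39.9% lower (log2 fold change -0.73 ± 0.10 (SE), 95% interval -0.96 to -0.51, edgeR adjusted p = 0.00132). It passed in all 17 other fits, with adjusted p = 0.00178 to 0.00668 when each library was left out.

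A circadian clock score was lower on average in knockout-labelled kidneys, with overlap between the groups. This score is the mean log2 CPM of 9 clock output genes less the mean of 5 activators. It was -0.21 ± 1.10 in knockout-labelled kidneys and 2.10 ± 1.05 in wildtype-labelled kidneys (SD, n = 4 each; exact two-sided permutation p = 0.0571). With the score as a term in the fit, Slc34a3 had a log2 fold change of -1.15 ± 0.29 (edgeR adjusted p = 0.0711) and Slc34a1 one of -0.50 ± 0.28 (adjusted p = 0.357), while Pth1r still fell (-0.79 ± 0.16, adjusted p = 0.0201). The score differed with genotype on average, and the fit with it had a larger SE for each of these genes. It also called fewer genes over all those tested, 743 against 1817 in the main fit. A call lost in that fit is therefore no measure of clock phase, whose part in these differences was not tested.

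**Figure D2:**
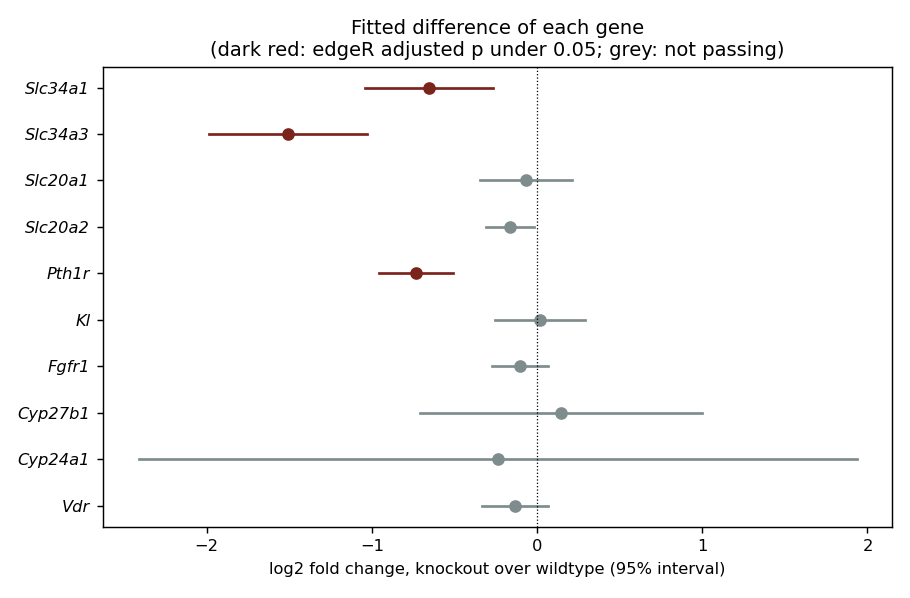
Log2 fold change of each gene, knockout over wildtype, with its 95% interval derived from the edgeR fit. The intervals of Slc34a1, Slc34a3 and Pth1r lie below 0 and are drawn in dark red for an adjusted p under 0.05, and that of Cyp24a1 runs from -2.41 to 1.93.

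The promoters of the 3 genes that fell are shown because these genes fell and because the targeted factor binds DNA. Sequences are from RefSeq, build GRCm38.p6, which differs from the mm9 build named for the files. Each holds 250 bases before and 50 after a gene start, 5′ to 3′ on the gene's strand. Capitals mark the AP-2 consensus GCCNNNGGC, which reads the same on both strands. Slc34a1 lies at chr13:55399398-55399697 on the plus strand, Slc34a3 at chr2:25234185-25234484 on the minus strand, and the Pth1r window with a match at chr9:110742561-110742860 on the minus strand.
Slc34a1: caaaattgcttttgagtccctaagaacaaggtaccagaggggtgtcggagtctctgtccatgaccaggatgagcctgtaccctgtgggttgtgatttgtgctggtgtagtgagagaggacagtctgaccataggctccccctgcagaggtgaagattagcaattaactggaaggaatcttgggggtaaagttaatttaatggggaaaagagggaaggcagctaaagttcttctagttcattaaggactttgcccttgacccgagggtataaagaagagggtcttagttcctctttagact
Slc34a3: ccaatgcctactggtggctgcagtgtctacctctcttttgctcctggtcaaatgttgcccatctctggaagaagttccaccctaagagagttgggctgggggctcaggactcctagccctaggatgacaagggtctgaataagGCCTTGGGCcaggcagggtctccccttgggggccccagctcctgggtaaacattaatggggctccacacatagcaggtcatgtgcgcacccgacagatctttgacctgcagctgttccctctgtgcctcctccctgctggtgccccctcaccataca
Pth1r: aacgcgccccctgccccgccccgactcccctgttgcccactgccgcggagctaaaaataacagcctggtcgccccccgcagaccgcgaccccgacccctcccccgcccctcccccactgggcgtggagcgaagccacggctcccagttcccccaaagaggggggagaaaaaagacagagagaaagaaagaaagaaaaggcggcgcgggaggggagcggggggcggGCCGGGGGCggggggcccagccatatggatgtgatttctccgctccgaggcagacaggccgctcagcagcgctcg

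The AP-2 letters were found once in the Slc34a3 window, once in 1 of the 3 Pth1r windows, and not in the Slc34a1 window. Of 32851 windows of the same length, 16.6% hold them. For 7 of the 10 genes there were 10 windows, and 3 of these held the letters, the third belonging to Slc20a1, which did not pass the test. The E-box CACGTG, read by clock factors and found in 7.15% of all windows, was in 1 of the 10, that of Slc20a1. The HNF1 consensus and the direct-repeat vitamin D response element were sought on both strands and were in none of the 10, and in 0.399% and 0.0396% of all windows. A match of letters is not a bound site.

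Exons of Slc34a1 overlap those of Pfn3 on the opposite strand, and those of Cyp24a1 overlap Pfdn4, in counts named as not stranded.

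Levels between genes were compared as CPM per kilobase of annotated exon (GENCODE M21), a scale that depends on the gene models. Slc34a1 was the most abundant of the 10 in both groups, at 566 ± 121 CPM per kilobase in knockout-labelled kidneys and 891 ± 175 in wildtype-labelled kidneys (SD, n = 4 each). Pth1r and Kl followed. Pth1r stood at 134 ± 15.0 CPM per kilobase and Kl at 118 ± 20.8 in knockout-labelled kidneys, where their ranges overlapped. In the wildtype-labelled kidneys Pth1r, at 223 ± 21.8, lay wholly above Kl, at 117 ± 9.55. Vdr came next, at 56.3 ± 5.56 and 61.8 ± 4.70 CPM per kilobase in knockout-labelled and wildtype-labelled kidneys. Cyp27b1 was the lowest in both groups, at 3.64 ± 1.75 and 3.30 ± 1.32 in the same order. Slc34a3 shared the range of Slc20a2 in knockout-labelled kidneys, at 9.70 ± 2.85 against 9.64 ± 0.59 CPM per kilobase, but lay wholly above it in wildtype-labelled kidneys, at 27.6 ± 4.64 against 10.8 ± 0.37.

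Of the summed per-kilobase level of the 4 carriers, Slc34a1 made up 94.3% to 95.8% in knockout-labelled kidneys and 93.7% to 95.5% in wildtype-labelled kidneys. The share of Slc34a3 was 1.40% to 1.83% against 2.72% to 3.35%, with no overlap. The summed carrier level itself, which is nearly all Slc34a1 with its narrow call, was 446 to 721 CPM per kilobase in knockout-labelled kidneys and 762 to 1186 in wildtype-labelled kidneys.

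Slc34a3 was lower relative to its sister carrier, which restates its share above because Slc34a1 made up nearly all of that sum. Its log2 CPM minus that of Slc34a1 was -6.69, -7.05, -7.05 and -6.69 in knockout-labelled kidneys, and -6.12, -6.03, -6.03 and -5.79 in wildtype-labelled kidneys. The groups were apart, with a difference of -0.88 (exact two-sided permutation p = 0.0286, the smallest that 70 assignments allow; adjusted p = 0.0429 over 6 such within-library differences). A within-library difference does not depend on the scaling between libraries.

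The same measure set each proximal gene against 20 other proximal tubule markers. The marker list had a median log2 fold change of -0.35. Of its 20 genes 3 fell and none rose, where 5.7% of all genes tested fell and 6.23% rose. Those that fell were Slc5a2, a glucose cotransporter (-1.30 ± 0.23), Slc5a1 (-0.44 ± 0.074) and the nuclear receptor gene Hnf4a (-0.39 ± 0.11). Hnf4a passed in only 1 of the 8 fits with a library left out, that without knockout 3, and 2 to 7 of the list fell over these fits. Log2 fold changes of single markers ranged from -1.30 for Slc5a2 to 0.09 ± 0.15 for Slc22a6. Slc5a12 had -0.82 ± 0.33 and did not pass (edgeR adjusted p = 0.154). A difference from the list mean is thus no difference from every marker: Slc5a2 and Slc5a12 had lower values than the -0.73 of Pth1r. Slc34a3 minus the list mean was -4.09 ± 0.33 in knockout-labelled kidneys and -2.96 ± 0.21 in wildtype-labelled kidneys, a difference of -1.13 (SD, n = 4 each; exact permutation p = 0.0286, adjusted p = 0.0429). Pth1r minus the list mean was 0.05 ± 0.13 against 0.37 ± 0.20, a difference of -0.33 (exact permutation p = 0.0286, adjusted p = 0.0429). That of Pth1r gave exact permutation p = 0.0571 without knockout 1, knockout 3, knockout 4 or wildtype 1. Slc34a1 minus the list mean was 2.78 ± 0.15 against 3.03 ± 0.27, and its groups overlapped (difference -0.25, exact permutation p = 0.171, adjusted p = 0.206). With the list median in place of its mean the differences were -0.45 for Slc34a1 (exact permutation p = 0.0571) and -0.53 for Pth1r. The proximal list summed to 12548 to 18761 CPM in knockout-labelled kidneys and 17666 to 20228 CPM in wildtype-labelled kidneys.

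**Figure D3:**
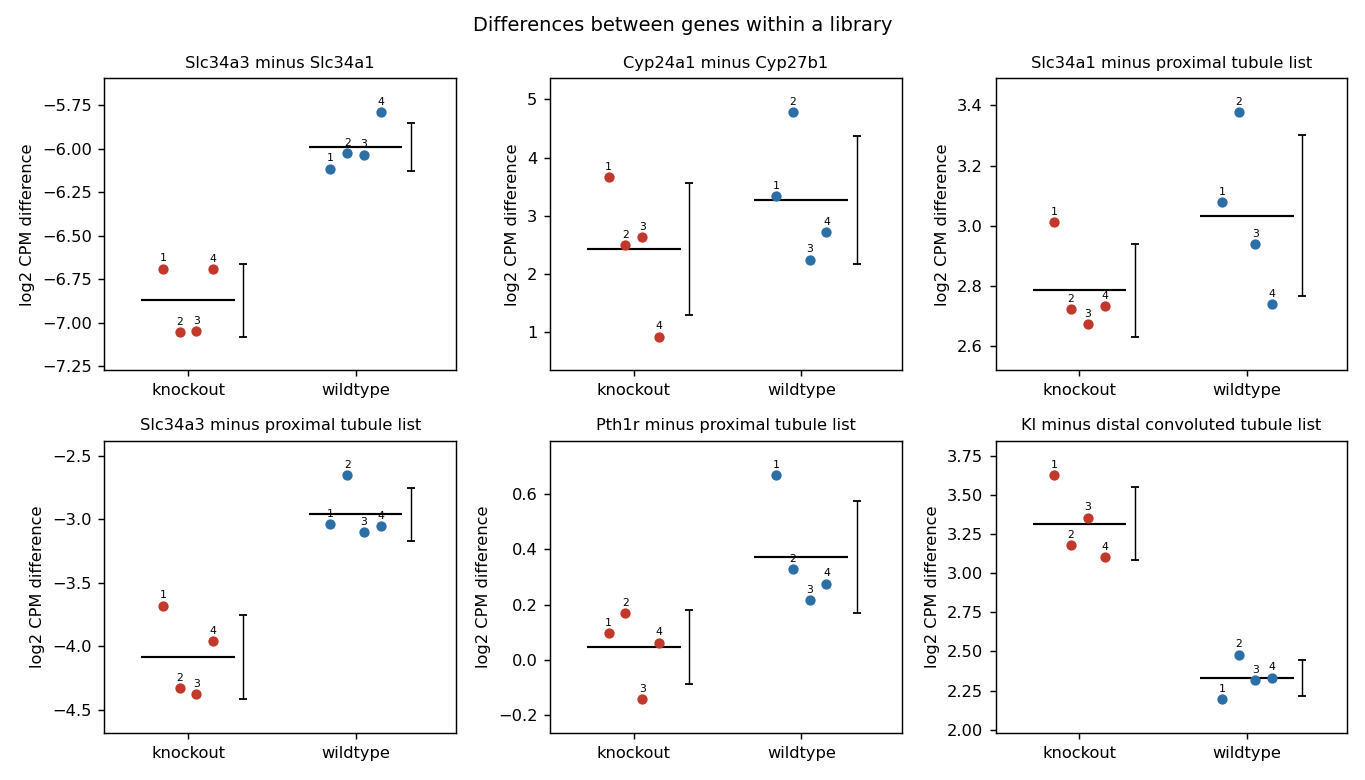
Difference in log2 CPM between 2 genes, or between a gene and the mean of a marker list, within each library (points, numbered by replicate), with group mean (line) and SD (bar). The groups are apart in 4 of the 6 panels and overlap for Cyp24a1 minus Cyp27b1 and for Slc34a1 minus the proximal tubule list.

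The type III carriers Slc20a1 and Slc20a2 encode PiT-1 and PiT-2, widely expressed sodium phosphate cotransporters. Slc20a1 stood at 43.2, 53.9, 56.3 and 51.3 CPM in knockout-labelled kidneys, and at 45.9, 45.7, 57.1 and 65.5 CPM in wildtype-labelled kidneys. These ranges overlapped widely (log2 fold change -0.07 ± 0.13, 95% interval -0.35 to 0.21, edgeR adjusted p = 0.776). Slc20a2 stood at 58.9, 59.7, 64.98 and 56.2 CPM in knockout-labelled kidneys, and at 64.7, 67.8, 70.1 and 66.2 CPM in wildtype-labelled kidneys. Only knockout 3 reached the wildtype range. The difference was small, -0.17 ± 0.066 on the log2 scale, with an unadjusted p of 0.0285 and an edgeR adjusted p of 0.13.

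Kl encodes klotho, the co-receptor that lets FGF receptors bind FGF23, made mainly by distal tubule cells and also by proximal ones. It stood at 1331, 989, 1182 and 898 CPM in knockout-labelled kidneys, and at 982, 1199, 1076 and 1091 CPM in wildtype-labelled kidneys. The knockout-labelled kidneys held both the highest and the lowest value. The log2 fold change was 0.02 ± 0.12 (95% interval -0.26 to 0.29, edgeR adjusted p = 0.948), which leaves room for a fold of 0.838 to 1.22.

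Kl was also set against markers of the distal convoluted tubule. Of 14 such markers 10 fell and none rose, with a median log2 fold change of -0.58, and they summed to 4853 to 5312 CPM in knockout-labelled kidneys and 9337 to 9649 CPM in wildtype-labelled kidneys. Kl minus the mean of that list was 3.32 ± 0.23 log2 units in knockout-labelled kidneys and 2.33 ± 0.12 in wildtype-labelled kidneys (SD, n = 4 each). The difference was 0.99 (exact permutation p = 0.0286, adjusted p = 0.0429), and 0.77 with the list median in place of its mean, which gives less weight to the strongly reduced Pvalb. Kl itself had a log2 fold change of 0.02, so this difference restates the fall of the markers and is no separate result about Kl.

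Fgfr1 encodes an FGF receptor that serves FGF23 signalling together with klotho and is also expressed in stromal cells. It stood at 76.9, 79.3, 75.5 and 75.5 CPM in knockout-labelled kidneys, and at 73.1, 78.0, 90.6 and 88.4 CPM in wildtype-labelled kidneys. The 4 libraries labelled knockout were nearly level, inside the lower part of the wildtype range (log2 fold change -0.10 ± 0.077, 95% interval -0.27 to 0.06, edgeR adjusted p = 0.421). Of 7 fibroblast markers 5 rose, with a median log2 fold change of 0.93, and they summed to 648 to 1021 CPM in knockout-labelled kidneys and 355 to 506 CPM in wildtype-labelled kidneys. Their part in the Fgfr1 level was not tested.

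Cyp24a1 encodes the 24-hydroxylase that inactivates vitamin D, and was the most variable of the 10 genes. It stood at 198, 43.3, 59.2 and 9.39 CPM in knockout-labelled kidneys, and at 81.7, 180.3, 64.1 and 40.9 CPM in wildtype-labelled kidneys. The highest library was 21.0 times the lowest among those labelled knockout and 4.40 times among those labelled wildtype. Counting error is small beside this spread: the 95% Poisson interval was 191 to 204 CPM in knockout 1 and 7.84 to 11.1 CPM in knockout 4, from 3380 and 130 counts. Its SD of log2 CPM was 1.80 in knockout-labelled kidneys and 0.89 in wildtype-labelled kidneys, larger than that of 99.8% and 98.1% of all genes tested. The log2 fold change was -0.24 ± 0.90 with a 95% interval of -2.41 to 1.93 (edgeR adjusted p = 0.898), so that a change of several fold in either direction was not detectable. Leaving out 1 library moved it between -1.28 (without knockout 1) and 0.32 (without wildtype 2), and it was 0.13 without knockout 4.

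Cyp27b1 encodes the 1-alpha-hydroxylase that activates vitamin D in the proximal tubule, and macrophages can express it too. It stood at 15.5, 7.61, 9.45 and 4.91 CPM in knockout-labelled kidneys, and at 7.98, 6.43, 13.4 and 6.13 CPM in wildtype-labelled kidneys. Knockout 1 was highest and knockout 4 lowest of all 8 libraries, for this gene as for Cyp24a1. The log2 fold change was 0.14 ± 0.37 (95% interval -0.71 to 0.996, edgeR adjusted p = 0.845), and it was -0.21 without knockout 1. Fitted beside the clock score, it was 0.88 ± 0.46 (edgeR adjusted p = 0.345). Of 9 macrophage markers 8 rose. In replicate order they summed to 549, 360, 333 and 407 CPM in knockout-labelled kidneys. The wildtype-labelled kidneys had 185, 216, 229.8 and 205 CPM. Knockout 4, lowest for Cyp27b1, was thus not lowest for these markers. Their part in the Cyp27b1 level was not tested.

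The balance of both enzymes, log2 CPM of Cyp24a1 minus that of Cyp27b1, was 3.66, 2.49, 2.63 and 0.92 in knockout-labelled kidneys, and 3.33, 4.78, 2.24 and 2.72 in wildtype-labelled kidneys. The groups overlapped (difference -0.84, exact permutation p = 0.4, adjusted p = 0.4). Vdr stood at 342, 304, 346 and 280.4 CPM in knockout-labelled kidneys, and at 316, 359, 379 and 343 CPM in wildtype-labelled kidneys. Its groups overlapped (log2 fold change -0.13 ± 0.091, 95% interval -0.33 to 0.07, edgeR adjusted p = 0.376).

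**Figure D4:**
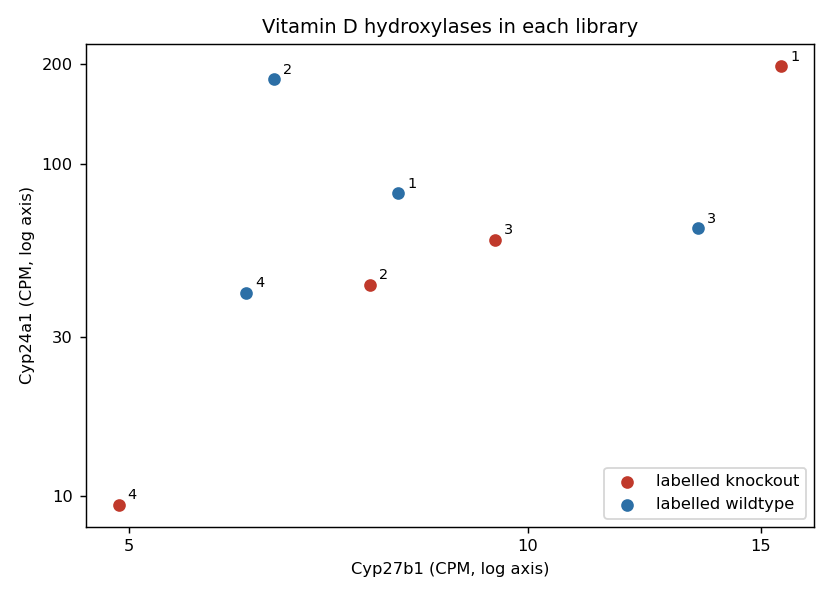
Cyp24a1 against Cyp27b1 in CPM, both on log axes, 1 point per library, numbered by replicate and coloured by group. Knockout 1 is highest and knockout 4 lowest on both axes, and among the wildtype-labelled kidneys the highest is wildtype 2 for Cyp24a1 and wildtype 3 for Cyp27b1.

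Of 14 tested genes for scaffolds, phosphate export and related enzymes or hormones, 3 rose and 3 fell, with a median log2 fold change of -0.18. For this and the other pathway lists, the shares over all genes tested were 6.23% rising and 5.7% falling. Stc1, which encodes the secreted glycoprotein stanniocalcin-1, stood at 17.2, 20.5, 18.0 and 22.6 CPM in knockout-labelled kidneys, and at 5.35, 6.06, 4.02 and 4.43 CPM in wildtype-labelled kidneys, far apart (log2 fold change 1.98 ± 0.15, edgeR adjusted p = 2.31e-05). Slc34a2, the NaPi-IIb carrier best known from gut and lung, rose to 24.6 ± 5.12 CPM, against 11.8 ± 2.87 CPM (SD, n = 4 each; log2 fold change 1.06 ± 0.19), and the related Stc2 rose by 0.84 ± 0.14. Pdzk1, a brush-border scaffold that binds NaPi-IIa, fell by 0.58 ± 0.16 on the log2 scale, the phosphatase gene Alpl by 0.52 ± 0.13 and Enpp1, a source of pyrophosphate, by 0.43 ± 0.089. The call of Pdzk1 ended without knockout 4 or any 1 wildtype library, and that of Alpl without knockout 2, knockout 4, or wildtype 1, 2 or 3. Over single left-out libraries, 1 to 5 of the list fell. The phosphate exporter gene Xpr1 had -0.26 ± 0.094 and did not pass (adjusted p = 0.0961).

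Of 13 tested genes of PTH signalling, 2 rose, 2 fell and 9 did not pass, with a median log2 fold change of -0.06. Casr, the calcium-sensing receptor, stood at 40.1, 26.0, 32.8 and 22.7 CPM in knockout-labelled kidneys, and at 62.3, 73.4, 71.7 and 108 CPM in wildtype-labelled kidneys, with no overlap (-1.37 ± 0.22, edgeR adjusted p = 0.0057). Casr is also a marker of the thick ascending limb, of whose 8 other markers 7 fell. The arrestin gene Arrb1 fell by 0.29 ± 0.085 on the log2 scale, a call that ended when any 1 of 7 libraries was left out (all but knockout 1). Arrb2 rose by 0.45 ± 0.097 and Ramp2, a receptor partner protein, by 0.43 ± 0.082. The call of Arrb2 ended without both knockout 1 and knockout 4 (edgeR adjusted p = 0.0708). The G protein genes Gnas, Gnaq and Gna11, whose products couple to PTH1R, had -0.06 ± 0.15, 0.05 ± 0.076 and -0.02 ± 0.066 and did not pass.

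Among FGF23 and klotho partners, 1 of 13 tested genes fell and none rose, with a median log2 fold change of -0.08. That count lies near the 5.7% of all genes tested that fell. The gene that fell was Fgfr3, an FGF receptor (-0.39 ± 0.087, edgeR adjusted p = 0.0151). Its neighbours in rank, Furin, Fam20c and Fgfr4, had -0.27, -0.31 and -0.36 and did not pass (edgeR adjusted p = 0.0508, 0.0643 and 0.0737), and without knockout 3 all of them passed. Fgf23 itself had 0 counts in all 8 libraries. The approximate upper 95% bound for 0 counts is 3 counts, or 0.168 to 0.226 CPM by library, for counting error only.

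In the list of vitamin D supply and partner genes, 2 of 18 fell and none rose, with a median log2 fold change of -0.16. Over all genes tested, 5.7% fell. The 2 genes of the list that fell belong to the apical endocytosis that brings vitamin D with its carrier protein into proximal cells. Lrp2, which encodes megalin, fell by 0.68 ± 0.17 on the log2 scale (edgeR adjusted p = 0.0235, and 0.0587 to 0.063 without knockout 4, wildtype 3 or wildtype 4), and Amn, the partner of cubilin, by 0.38 ± 0.071. Cubn itself had -0.56 ± 0.21 and the VDR coactivator gene Snw1 -0.21 ± 0.085, and neither passed (adjusted p = 0.124 and 0.141).

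Of 8 tested VDR target genes, 2 rose, 2 fell and 4 did not pass, with a median log2 fold change of 0.19. S100g, the intracellular calcium carrier calbindin-D9k, rose by 1.61 ± 0.24 and Spp1, osteopontin, by 0.70 ± 0.12, while Calb1, calbindin-D28k, fell by 1.21 ± 0.092 and Casr by 1.37 ± 0.22 on the log2 scale. Calb1 also marks the distal convoluted and connecting tubule. S100g, the other calbindin gene of the list, rose, and connecting tubule markers were not examined as a list. The part of VDR, or of the numbers of each cell type, in the rises and falls of these genes was not tested. The calcium channel genes Trpv5 and Trpv6 had 0.39 ± 0.19 and 0.54 ± 0.22 and did not pass.

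**Figure D5:**
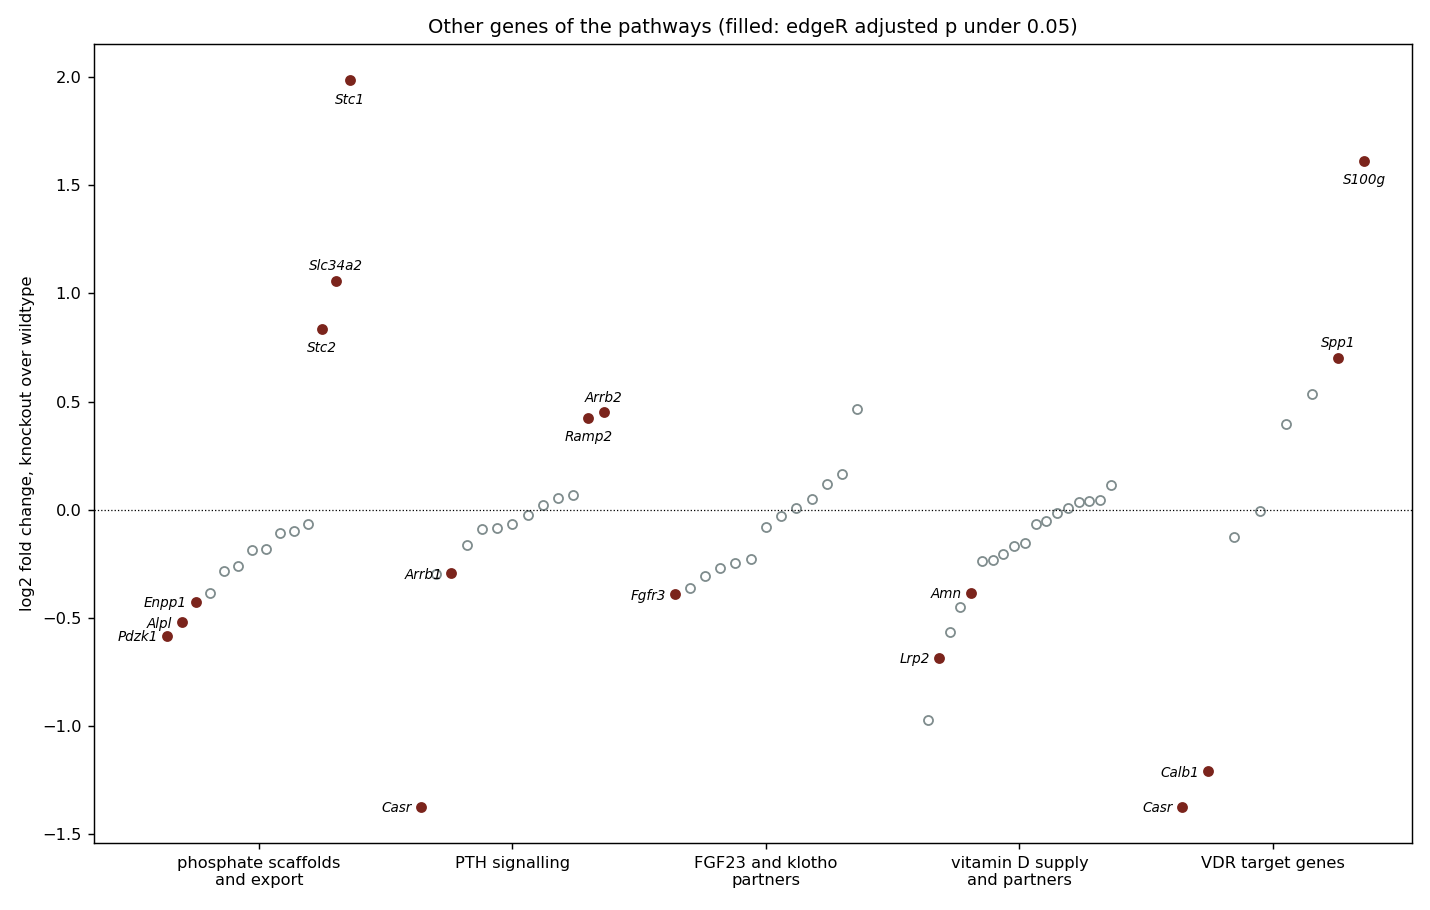
Log2 fold change, knockout over wildtype, of the tested genes in 5 pathway lists, ordered within each list; filled points have an edgeR adjusted p under 0.05 and are named. Stc1 is the highest point at 1.98 and Casr, a member of 2 lists, the lowest at -1.37.

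Other cell type lists, given because whole kidneys were used, moved as follows. Beside these counts and those of the marker lists above, 6.23% of all genes tested rose and 5.7% fell. Principal and intercalated cell markers rose in 6 of 7 and 6 of 8 tested genes, with median log2 fold changes of 0.57 and 0.93. Endothelial markers fell in 1 of 6 and podocyte markers in 2 of 5, with medians of -0.30 and -0.34; with a library left out, 0 to 4 and 1 to 3 of them fell. Of the adrenal genes 3 were tested and none passed. With the clock score as a term, 0 proximal, 6 distal convoluted, 6 thick ascending limb, 0 podocyte and 1 endothelial markers fell, and 1 principal cell, 5 intercalated cell, 3 fibroblast and 8 macrophage markers rose. In the same fit, 1 phosphate-handling gene rose and 0 fell, 0 PTH signalling genes were called, 0 FGF23 partners and 0 vitamin D partners fell, and 1 VDR target rose and 1 fell. Over all genes tested, the fit with the clock score called 508 rising and 235 falling.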

How the data were processed

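Total RNA of 8 whole kidneys was made into directional libraries, per the labels' protocols. The deposited values are read counts per gene, raw and not normalized, 1 file per library. STAR, HTSeq and edgeR and the build mm9 are named in the submitters' processing notes; their versions and roles, and the annotation, were not stated there. The counts are named as not stranded, so reads of genes overlapping on opposite strands cannot be told apart. In GENCODE M21, exons of Slc34a1 overlap Pfn3, and those of Cyp24a1, Slc20a2, Pth1r, Slc20a1 and Fgfr1 overlap Pfdn4, Smim19, Myl3, 9830144P21Rik and Gm16159, in that order. The summary rows stayed out of library sizes; 63.8% to 69.1% of records were assigned to a gene. Gene names matched 32860 of 37583 identifiers, and all 192 list entries.

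Genes kept by filterByExpr (15228) were scaled by TMM and compared with edgeR 4.0.16 (R 4.3.3), quasi-likelihood, robust, two-sided, 4 against 4, with Benjamini-Hochberg adjustment and a threshold of 0.05. The SE of a log2 fold change was derived as its absolute value over the square root of edgeR's F statistic. The 95% intervals are this SE times a t quantile. Log2 CPM used a prior count of 2. Within-library differences were compared by exact permutation. Intervals for counts cover counting error only. Alternatives were other scalings and filters, DESeq2 1.42.0, limma 3.58.1 (voom), a replicate block, the clock score, and left-out libraries. The fit was tested on simulated data, 4 against 4 libraries, with 50 changed genes per fold. It recovered 46% of 1.5-fold, 76% of 2-fold, 96% of 4-fold and 98% of 8-fold changes, and 5.39% of its calls were false. A gene that did not pass can thus still differ by 1.5-fold or 2-fold. Same-numbered libraries had correlated deviations of -0.215, -0.21, -0.0527 and 0.157, so the numbers were not taken to pair them. Replicates differed beyond sampling noise (chi-square over its degrees of freedom, 9.04 to 22.9). The members and lists were chosen with earlier results of these data known. Named genes are the 10 members, Tfap2b, up to 4 genes of each pathway list by adjusted p with any called in its rarer direction, up to 3 per cell type list, and the 3 genes most correlated with Slc34a3, Cyp24a1 and Cyp27b1. Gnas, Gnaq, Gna11, Xpr1, Trpv5, Trpv6, Fgf23, Pvalb, Slc5a12 and Slc22a6 were named after their values were seen.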

Additional observations from a re-analysis of the deposited data

Results flagged for a closer look

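Of 136 groups of 4 values examined, 5 had a library far from the other 3, measured as its gap to the nearest library over the range of the group; chance gives about 1 in 20. Wildtype 2 was highest of the libraries labelled wildtype for Slc34a3 relative to the proximal tubule list (0.8667). Wildtype 4 was lowest for Alpl (0.8297), and knockout 2 was highest of the libraries labelled knockout for Tfap2b (0.8887). Knockout 4 was highest for the adrenal genes Star (0.9715) and Akr1b7 (0.8472); without it, Slc34a3 and Pth1r still fell (log2 fold changes -1.51 and -0.72), and Slc34a1 had -0.61 with an edgeR adjusted p of 0.0997.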

How the results depend on the processing

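Pth1r was called in all 17 other fits and Slc34a3 in all but that with the clock score. The count of genes of the set that fell was 3 in the main analysis, 1 with the clock score as a term, 2 to 3 over the single left-out libraries, and 2 with library totals only, with a replicate block, and without knockout libraries 1 and 4. None rose in any of these fits.

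Over all genes, 949 rose and 868 fell. With library totals only, 1658 rose and 508 fell, 76.5% upward against 52.2%, and the median over all genes shifted to 0.11 (log2). With a replicate block it was 577 and 517, with the clock score 508 and 235, and without knockout libraries 1 and 4 it was 502 and 410. Leaving out 1 library gave 588 to 977 rising and 488 to 963 falling.

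Directions of genes that did not pass changed as follows. With library totals only, Slc20a1 had a log2 fold change of 0.038 and Fgfr1 0.00187. With the clock score as a term, Fgfr1 had 0.044, Cyp24a1 0.51 and Vdr 0.00537. Without knockout libraries 1 and 4, Slc20a1 had 0.039, Kl -0.00285, Cyp27b1 -4.12e-05 and Akr1b7 -0.14. Over single left-out libraries Slc20a1 ranged from -0.14 to 0.044, Kl from -0.087 to 0.10, Cyp27b1 from -0.21 to 0.46, Cyp24a1 from -1.28 to 0.32 and Akr1b7 from -0.12 to 0.68. The cause was not tested.

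Paired by replicate number, with 4 pairs and exact sign flips whose smallest p is 0.125, the within-library differences were the same by construction (-0.88 for Slc34a3 minus Slc34a1, -1.13 and -0.33 for Slc34a3 and Pth1r minus the proximal list, 0.99 for Kl minus the distal list), each with exact p = 0.125. With the replicate block in the edgeR fit, Slc34a1 had -0.66 (adjusted p = 0.0887), and the calls of Arrb2, Arrb1 and Pdzk1 also ended (adjusted p = 0.0622, 0.0811 and 0.0532). Without knockout libraries 1 and 4 those of Alpl, Hnf4a, Lrp2 and Pdzk1 ended (adjusted p = 0.149, 0.167, 0.0566 and 0.085). Not every library correlated best with its own number. Over single left-out libraries the Pth1r difference ranged from -0.38 to -0.23. Depth did not limit Cyp24a1, whose libraries differed far beyond counting error.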

Other observations

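The genes most like Slc34a3 over the 8 libraries, by Pearson correlation of log2 CPM among 12511 genes, were Clcn4 (0.999), Slc5a2 (0.994) and Tango2 (0.992). Those most like Cyp24a1 were Tmem241 (0.961), Ccdc171 (0.956) and Saxo2 (0.953), and those most like Cyp27b1 were Ulk4 (0.958), Ppp6r2 (0.924) and Tmem198b (0.910). These are descriptions over 8 libraries of 2 groups, and those of Slc34a3 include the difference between the groups: Clcn4, Slc5a2 and Tango2 fell by 0.28 ± 0.064, 1.30 ± 0.23 and 0.45 ± 0.073 (SE) on the log2 scale, whereas none of the other 6 passed.

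Among the libraries labelled knockout, Cyp24a1, Cyp27b1 and Kl had the same order, highest in knockout 1, then 3, 2 and 4; Kl stood at 1331, 1182, 989 and 898 CPM in that order. Among the libraries labelled wildtype the 3 genes did not share an order. From highest to lowest it was wildtype 2, 1, 3 and 4 for Cyp24a1 and 2, 4, 3 and 1 for Kl. For Cyp27b1 it was wildtype 3, 1, 2 and 4. The shared order in the libraries labelled knockout was noticed after the values were seen and was not tested.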
